A study of Mus musculus with 38 samples.

Results

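RNA-Seq values of healthy osteoprogenitors were compared with those of healthy stromal progenitors, both sorted from the bone lining of mouse long bones. The members were the libraries whose labels give these cell types and the healthy condition, which are 4 libraries of osteoprogenitors (L, M, N and O) and 5 of stromal progenitors (C, L, M, N and O), 9 of the 38 libraries of the series. The study sequenced endothelial cells, stromal progenitors, osteoprogenitors and myeloma cells of healthy and myeloma-bearing C57Bl/KaLwRij mice. The mice were 8 to 10 weeks old when the healthy ones received vehicle (PBS) by vein, and were culled on day 23 after that. Bone-lining cells of both femora and tibiae were released with collagenase, and both gates removed CD45+, Ter119+ and CD31+ cells, which are blood, erythroid and endothelial cells. Within the remainder, osteoprogenitors were ALCAM+ Sca1- and stromal progenitors were Sca1+ ALCAM-. A library was made from 100 cells, so that each value is a mean over the cells that fell in a gate.

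Bone-forming cells arise from mesenchymal progenitors of the marrow and the bone surface. As they mature they secrete type I collagen, then proteins that bind and nucleate mineral, and some become osteocytes embedded in the matrix. Sca1, encoded by Ly6a, marks mesenchymal progenitors with fibroblast features in mouse bone, and ALCAM (CD166) has been used to mark cells further along the osteoblast lineage.

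The 4 osteoprogenitor libraries held 13030025 to 21789966 reads on genes and the 5 stromal progenitor libraries 23159579 to 30768538, so every stromal library was deeper than every osteoprogenitor library. Genes above 1 RPKM (reads per kilobase of gene, scaled to an effective library size) numbered 7660 to 8789 in osteoprogenitors and 6449 to 8532 in stromal progenitors. Effective size over total reads was 0.844 to 0.980 in osteoprogenitors and 0.726 to 0.851 in stromal progenitors. This scaling raises stromal values relative to osteoprogenitor ones, compared with scaling to plain reads. Values below are RPKM, with libraries given in the order L, M, N and O for osteoprogenitors and C, L, M, N and O for stromal progenitors. A log2 difference is the mean of log2(RPKM + 1) in osteoprogenitors minus that in stromal progenitors, which understates the difference of genes with low values. A gene passed when its Benjamini-Hochberg adjusted p from limma was below 0.1 and its log2 difference was above 1 in either direction. The p-values measure the spread between these libraries of 100 cells. In sorted aliquots, fewer cells of a type and less RNA per cell cannot be told apart.

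The RNA of the antigens used for sorting was examined first. Ly6a was 95.2, 1.11, 0.986 and 64.6 RPKM in the osteoprogenitor libraries and 1322, 1933, 1869.7, 908 and 792 RPKM in the stromal progenitor libraries. The groups did not overlap, and osteoprogenitor libraries L and O carried more Ly6a than M and N (log2 difference -6.65 ± 1.004 (SE), adjusted p = 0.00265). Alcam was 1.97, 2.17, 8.02 and 7.39 RPKM in osteoprogenitors and 1.13, 0, 0, 0.00924 and 0.00902 RPKM in stromal progenitors. All 4 osteoprogenitor libraries lay above all 5 stromal ones, at low levels, and the difference missed the threshold (log2 difference 2.15 ± 0.63 (SE), adjusted p = 0.109). Alcam passed in 6 of 30 alternative settings, among them all 38 libraries in the fit (adjusted p = 0.000517) and voom-limma (0.0631). The fit of 38 libraries takes in the spread of other cell types, not that of these 9 libraries alone. Ptprc, which encodes CD45, was at most 0.0492 RPKM in any of the 9 libraries. Pecam1, which encodes CD31, was 0.115 to 2.19 RPKM in osteoprogenitors, the highest value being in library N, and 0.0812 to 0.139 RPKM in stromal progenitors. Since these antigens chose the cells, their levels are a check of the sort.

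Of the markers that the study names for the 2 cell types, Bglap, which encodes the bone matrix protein osteocalcin, separated the groups by far. It was 13983, 6211, 15756 and 45659 RPKM in osteoprogenitors and 65.1, 37.6, 54.2, 14.1 and 82.3 RPKM in stromal progenitors (log2 difference 8.47 ± 0.55 (SE), adjusted p = 1.07e-06). Sp7, which encodes the osteoblast transcription factor osterix, was 1.51, 2.67, 2.22 and 30.6 RPKM in osteoprogenitors and 0.711, 0, 0, 0 and 0.0196 RPKM in stromal progenitors. Its groups did not overlap, but library O stood over the other osteoprogenitors and the gene did not pass (log2 difference 2.31 ± 0.77 (SE), adjusted p = 0.171). Sp7 passed in 3 of 26 alternative settings, such as with all 38 libraries in the fit (0.000756), which take in other cell types. Prrx1, a homeobox factor of limb mesenchyme, was 38.3, 58.6, 6.23 and 14.8 RPKM in osteoprogenitors and 57.0, 37.1, 36.2, 144 and 136 RPKM in stromal progenitors. The groups overlapped and Prrx1 did not pass (log2 difference -1.61 ± 0.68 (SE), adjusted p = 0.319). Bglap and Ly6a therefore separated every library by its label, while Prrx1 did not. Pdgfra (log2 difference -1.30, adjusted p = 0.272), Pdgfrb (log2 difference 0.07, adjusted p = 0.986), Lepr (log2 difference -0.28, adjusted p = 0.925) and Cxcl12 (log2 difference 1.37, adjusted p = 0.591) did not pass either. The study names these as markers of stromal progenitors, and names Pdgfrb, Lepr and Cxcl12 as markers of osteoprogenitors too.

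Of 8707 genes tested, 312 passed, which is 3.58% of them. There were 147 genes higher in osteoprogenitors (1.69% of those tested) and 165 higher in stromal progenitors (1.9%). The median log2 difference of all tested genes was 0.00. The groups did not overlap for 131 of the 147 genes and for 147 of the 165, and for 538 of all 8707 genes tested (6.18%). These genes were chosen for passing, and those with low stromal values entered the test through osteoprogenitors, so that the counts describe them only. Of the genes higher in osteoprogenitors, 69 had a stromal mean of 1 RPKM or less, while 24 of the genes higher in stromal progenitors had an osteoprogenitor mean that low. With voom-limma on the reads behind the RPKM values, 248 genes passed, of which 58.5% were higher in osteoprogenitors against 47.1% of the 312, and the median log2 difference of all genes was 0.10. The fit of 9 libraries passed 214 of the 312, and 178 passed in each of the 9 fits that left out 1 library with the same genes tested. Results without 1 library are given from these fits, since 55 of the 312 genes, 48 of them higher in osteoprogenitors, fail the filter of 4 libraries when it is set again on 8. The median SD of a gene between libraries was 1.07 in osteoprogenitors and 1.23 in stromal progenitors on the log2 scale, so that differences of a few fold were often within the spread.

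**Figure D1:**
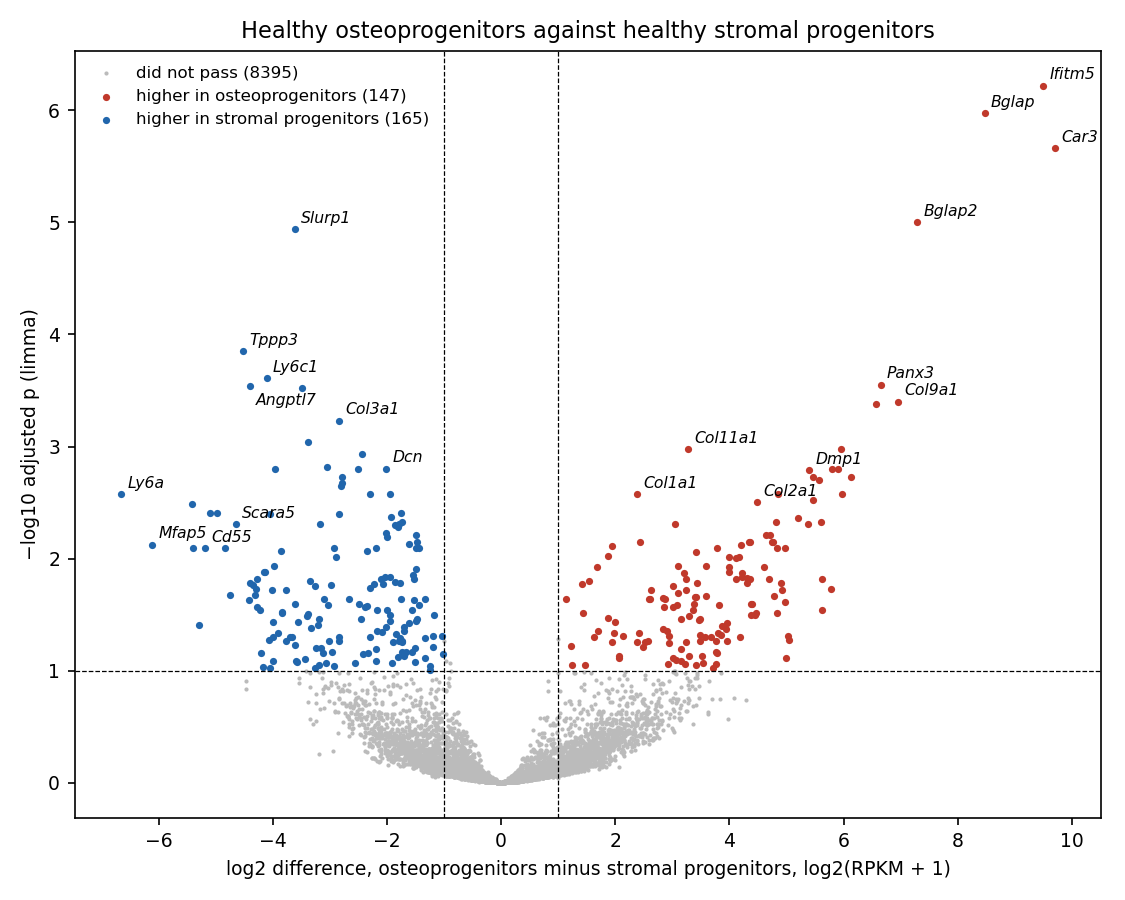
Log2 difference (x axis, osteoprogenitors minus stromal progenitors, log2(RPKM + 1)) against −log10 of the adjusted p (y axis) for the 8707 genes tested, with dashed lines at the thresholds. The 147 genes higher in osteoprogenitors reach a log2 difference of 9.70 (Car3), and the 165 higher in stromal progenitors reach -6.65 (Ly6a).

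The genes with the largest differences towards osteoprogenitors were Car3, Ifitm5, Bglap and Bglap2. Car3, which encodes carbonic anhydrase 3, was 689, 502, 1222 and 5386 RPKM in osteoprogenitors and 1.26, 0.268, 0.0911, 0.0599 and 1.14 RPKM in stromal progenitors (log2 difference 9.70 ± 0.68 (SE), adjusted p = 2.17e-06). Ifitm5 encodes BRIL, a small membrane protein of mineralising osteoblasts in which human mutations cause brittle bones. It was 1086, 514, 728 and 2078 RPKM in osteoprogenitors and 0.501, 0.413, 0.196, 0.129 and 0.442 RPKM in stromal progenitors (log2 difference 9.50 ± 0.56 (SE), adjusted p = 6.06e-07). Every osteoprogenitor library was above 500 RPKM and every stromal library was near 0. Bglap lies at chr3:88383501-88384464 of GRCm38, with Bglap2 (chr3:88377736-88378699) and Bglap3 beside it on the same strand. Their best-aligned transcripts were 98.9% identical between Bglap and Bglap2 over 439 bases and 96.4% between Bglap and Bglap3, so the split of reads between these genes is uncertain. Bglap2 was 3377, 1481, 3409.6 and 9802 RPKM in osteoprogenitors and 23.3, 19.8, 7.29, 21.01 and 69.7 RPKM in stromal progenitors. In both genes library O was highest and library M lowest of the osteoprogenitors. Bglap3 was 2.43, 0.259, 6.77 and 14.95 RPKM in osteoprogenitors and 0 in all 5 stromal libraries, and fell below the filter. With voom-limma, Car3 (adjusted p = 0.234) and Bglap2 (0.101) did not pass, while Ifitm5 (0.0155) and Bglap (0.0725) did.

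Promoters of 4 of the most different genes, 250 bases before to 50 after the start of the transcript, are shown to give the sequence around the start on the gene's own strand (RefSeq, GRCm38.p6). They are those of Bglap (chr3:88384417-88384716, minus strand), Ifitm5 (chr7:140950194-140950493, minus strand) and Matn3 (chr12:8947679-8947978, plus strand), which were higher in osteoprogenitors, and of Angptl7 (chr4:148500413-148500712, minus strand), which was higher in stromal progenitors. Capitals mark matches on either strand to TGTGGT, the core bound by RUNX factors, to ACAANG, a core of SOX factors, and to TATAAA. No 2 matches overlapped.
Bglap: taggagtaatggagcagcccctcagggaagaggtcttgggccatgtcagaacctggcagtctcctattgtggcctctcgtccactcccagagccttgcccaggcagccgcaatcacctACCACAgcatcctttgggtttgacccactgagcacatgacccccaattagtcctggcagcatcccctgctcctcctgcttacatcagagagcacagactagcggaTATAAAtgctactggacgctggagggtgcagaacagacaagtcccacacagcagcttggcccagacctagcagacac
Ifitm5: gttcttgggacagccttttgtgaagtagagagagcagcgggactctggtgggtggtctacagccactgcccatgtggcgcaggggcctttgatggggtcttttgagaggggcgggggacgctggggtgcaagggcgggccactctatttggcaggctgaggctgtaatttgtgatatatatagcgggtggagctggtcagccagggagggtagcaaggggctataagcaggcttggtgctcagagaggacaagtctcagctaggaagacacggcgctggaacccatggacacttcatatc
Matn3: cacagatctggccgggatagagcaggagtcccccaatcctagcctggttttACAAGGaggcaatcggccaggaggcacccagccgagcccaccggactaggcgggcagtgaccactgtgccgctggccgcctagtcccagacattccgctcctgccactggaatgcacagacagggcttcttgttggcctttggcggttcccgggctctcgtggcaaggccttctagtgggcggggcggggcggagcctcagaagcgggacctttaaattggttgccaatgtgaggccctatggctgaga
Angptl7: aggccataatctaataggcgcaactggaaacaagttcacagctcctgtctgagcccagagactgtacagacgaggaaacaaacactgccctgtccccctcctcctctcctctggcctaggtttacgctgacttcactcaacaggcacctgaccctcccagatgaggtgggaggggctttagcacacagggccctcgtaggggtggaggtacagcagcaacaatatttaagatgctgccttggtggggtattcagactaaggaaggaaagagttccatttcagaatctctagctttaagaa
The Bglap promoter held the reverse complement of the RUNX core, ACCACA, 132 to 127 bases before the start, and TATAAA 27 to 22 bases before it. The Matn3 promoter held a match to the SOX core 199 to 194 bases before the start, and the Ifitm5 and Angptl7 windows held none of these letters. Over the genes with a promoter in the table, the RUNX core was in 20 of 97 genes higher in osteoprogenitors (20.6%), in 22 of 121 higher in stromal progenitors (18.2%) and in 928 of 6536 tested genes (14.2%), and it was in 16.8% of all 32851 promoters. The SOX core was in 42.3%, 37.2% and 36.6% of these genes and in 41.2% of all promoters. TATAAA was in 15.5%, 24.8% and 8.77% of these genes and in 13.6% of all promoters. A match describes letters in this window only.

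Among the genes of bone matrix and mineral, 14 of 28 tested were higher in osteoprogenitors and 0 were higher in stromal progenitors, against 1.69% and 1.9% of all genes. This list and those below were chosen with earlier results of these data known, so such counts describe their members and are not a test. Their median log2 difference was 2.12, and 23 of the 28 were above 0. Col1a1 and Col1a2 encode the chains of type I collagen, the main protein of bone. Col1a1 was 3235, 1798, 4052 and 5918 RPKM in osteoprogenitors and 428, 1048, 465, 786 and 773 RPKM in stromal progenitors (log2 difference 2.38 ± 0.36 (SE), adjusted p = 0.00267). The lowest osteoprogenitor library, M, lay above the highest stromal library, L. Col1a2 followed with a log2 difference of 1.87 (adjusted p = 0.00951), from 595 to 1251 RPKM in stromal progenitors to 1911 to 7099 RPKM in osteoprogenitors. Type I collagen was thus abundant in stromal progenitors as well, and the osteoprogenitor mean of Col1a1 was 5.36-fold the stromal mean.

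Col11a1, a fibril collagen that sets fibril width, was 469.6, 278, 229 and 532 RPKM in osteoprogenitors and 34.98, 28.02, 20.8, 52.6 and 52.8 RPKM in stromal progenitors (log2 difference 3.28 ± 0.43 (SE), adjusted p = 0.00105). Col22a1 (10.3 to 35.4 against 0 to 0.478 RPKM) and Col24a1 (16.95 to 40.7 against 0 to 3.42 RPKM) passed with adjusted p of 0.00975 and 0.0134. Cthrc1, a secreted protein that carries a collagen repeat, was 161, 336, 507 and 1305 RPKM in osteoprogenitors and 72.6, 0.0503, 29.1, 18.1 and 0.231 RPKM in stromal progenitors (log2 difference 5.62 ± 1.13 (SE), adjusted p = 0.0152). Smpd3, a sphingomyelinase needed for matrix mineralisation, was 15.2 to 28.9 RPKM in osteoprogenitors and 0 to 1.77 RPKM in stromal progenitors (log2 difference 3.99, adjusted p = 0.0131). Ibsp, bone sialoprotein, was high in both cell types, at 3804, 2259.5, 7200.3 and 5633 RPKM in osteoprogenitors and 2421, 1549.7, 1706, 1117 and 1434 RPKM in stromal progenitors. Its groups overlapped by a single library, M of the osteoprogenitors, and the gene passed (log2 difference 1.44 ± 0.33 (SE), adjusted p = 0.0307). Its call was lost without osteoprogenitor library N or O (adjusted p = 0.113 without O). Col11a2 passed in the 9 libraries (log2 difference 2.93, adjusted p = 0.0867) and in none of the fits that left out 1 of them, with adjusted p up to 0.201 (without osteoprogenitor library L). With voom-limma, Cthrc1 (adjusted p = 0.192) and Col11a2 (0.137) did not pass.

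Of the bone genes that did not pass, Spp1, which encodes osteopontin, was 10383, 6506, 25882 and 5136 RPKM in osteoprogenitors and 11535, 30977, 23675, 16270.4 and 24331 RPKM in stromal progenitors. It was among the most abundant transcripts of both, overlapped between them and did not pass (log2 difference -1.05 ± 0.41 (SE), adjusted p = 0.266). Alpl, the alkaline phosphatase that frees phosphate for mineral, was 92.9, 52.4, 302 and 124 RPKM in osteoprogenitors and 58.2, 19.4, 0.498, 30.5 and 8.34 RPKM in stromal progenitors. Only stromal library C reached the osteoprogenitor range, and Alpl missed the threshold (log2 difference 3.07 ± 0.90 (SE), adjusted p = 0.108). In 6 of 30 alternative settings Alpl passed. These include the fit without stromal library C (adjusted p = 0.0559), with all 38 libraries (0.0931) and with the library letters as a block (0.0260). Postn, periostin of the periosteum, had a log2 difference of 3.43 (adjusted p = 0.104) and the kinase gene Fam20c 1.54 (0.548), while Col5a2 (-0.36, 0.769) and the phosphate transporter Slc20a2 (-0.70, 0.848) lay on the other side of 0.

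Of 6 osteocyte genes listed, only 3 had deposited values, and these were tested. Dmp1 and Phex, which are in the bone list too, were higher in osteoprogenitors, against 1.69% of all genes. Dmp1 encodes dentin matrix protein 1, a mineral-binding protein of osteocytes and late osteoblasts. It was 68.9, 38.1, 40.6 and 38.4 RPKM in osteoprogenitors and 0.0551, 0.0637, 0.0505, 0.216 and 0.0649 RPKM in stromal progenitors (log2 difference 5.40 ± 0.76 (SE), adjusted p = 0.00162). Phex, a membrane peptidase that controls phosphate balance, was 93.1, 33.9, 60.2 and 191 RPKM in osteoprogenitors and 9.002, 0.00935, 0.00741, 0.0292 and 0.0714 RPKM in stromal progenitors, where library C alone was above 0.1 RPKM (log2 difference 5.60 ± 0.92 (SE), adjusted p = 0.00470). Pdpn, podoplanin of early osteocytes, overlapped between the groups (log2 difference 0.81, adjusted p = 0.830). Both Dmp1 and Phex also passed with voom-limma and without any single library.

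Of 33 skeletal transcription factors tested, 2 passed, higher in osteoprogenitors, and 0 were higher in stromal progenitors, against 1.69% and 1.9% of all genes. Sox9, the master factor of cartilage, was 234, 253, 221 and 280.4 RPKM in osteoprogenitors and 98.9, 36.2, 53.9, 140.2 and 89.6 RPKM in stromal progenitors (log2 difference 1.69 ± 0.42 (SE), adjusted p = 0.0441). The osteoprogenitor libraries lay close together and above every stromal library, though the call was lost without osteoprogenitor library L or O (adjusted p = 0.124 without O). Runx2, which starts the osteoblast programme, was 19.3, 7.89, 14.1 and 21.8 RPKM in osteoprogenitors and 5.44, 0, 2.16, 2.85 and 13.8 RPKM in stromal progenitors. Stromal libraries C and O came near or into the osteoprogenitor range and Runx2 did not pass (log2 difference 1.95 ± 0.90 (SE), adjusted p = 0.377). Mef2c (log2 difference 2.49, adjusted p = 0.177) lay above and Lef1 (log2 difference 2.002, adjusted p = 0.373) below Sp7 among the factors that did not pass, and Tbx15 (log2 difference -1.44, adjusted p = 0.411) lay on the stromal side with Prrx1. The median over the factors was 0.54, against 0.00 for all genes, and 9 of the 33 were below an unadjusted p of 0.05, against 1142 of all 8707.

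**Figure D2:**
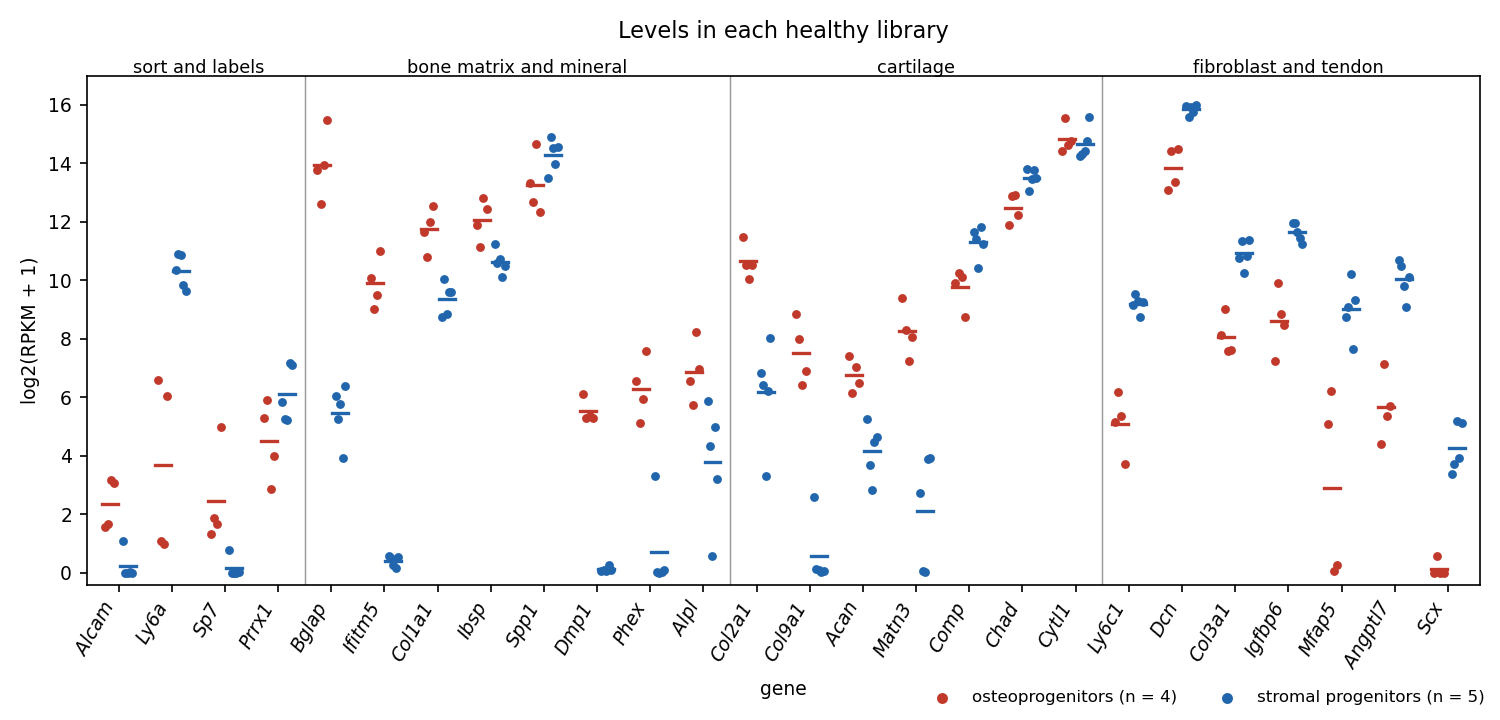
Log2(RPKM + 1) of the sort genes, bone matrix, cartilage, fibroblast and tendon genes in each library (red, 4 osteoprogenitor libraries; blue, 5 stromal progenitor libraries; bars, means). Bglap, Ifitm5 and Dmp1 form groups far apart, Spp1 and Cytl1 overlap at high levels, and the fibroblast genes on the right are higher in stromal progenitors.

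Cartilage genes were also higher in osteoprogenitors. Of 16 tested, 9 were higher in osteoprogenitors and 2 in stromal progenitors, against 1.69% and 1.9% of all genes, and the median log2 difference was 2.15. Sox9 is counted here and among the transcription factors. Col2a1, type II collagen of cartilage, was 2867, 1465, 1064 and 1481 RPKM in osteoprogenitors and 114, 85.2, 8.99, 73.5 and 260.4 RPKM in stromal progenitors (log2 difference 4.48 ± 0.70 (SE), adjusted p = 0.00311). Library L was highest among osteoprogenitors and library M lowest among stromal progenitors. Col9a1, which decorates type II fibrils, was 458, 252, 84.0 and 119 RPKM in osteoprogenitors and 5.09, 0.0904, 0.0716, 0.0118 and 0.0345 RPKM in stromal progenitors (log2 difference 6.95 ± 0.81 (SE), adjusted p = 0.000398). Col9a2 (log2 difference 4.98, adjusted p = 0.00800) and Col9a3 (log2 difference 4.81, adjusted p = 0.00470), the other chains of that collagen, passed as well. Matn3, a matrilin of growth cartilage, was 679, 318, 150.4 and 267 RPKM in osteoprogenitors and 5.64, 0.0389, 0.0308, 13.7 and 14.2 RPKM in stromal progenitors (log2 difference 6.13 ± 0.88 (SE), adjusted p = 0.00187). For these genes library L was the highest osteoprogenitor and library N the lowest, whereas for Bglap library O was highest.

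Acan, aggrecan, was 170.3, 69.9, 131 and 89.8 RPKM in osteoprogenitors and 37.4, 11.8, 6.18, 21.3 and 24.1 RPKM in stromal progenitors (log2 difference 2.60 ± 0.56 (SE), adjusted p = 0.0228), and Hapln1, its link protein, was 227 to 609 against 20.003 to 82.5 RPKM (log2 difference 3.05, adjusted p = 0.00494). Lect1, chondromodulin, was 5229, 4714, 2315 and 4660.3 RPKM in osteoprogenitors and 473, 162, 0.614, 383 and 557 RPKM in stromal progenitors (log2 difference 5.05 ± 1.29 (SE), adjusted p = 0.0531). Its call was lost without osteoprogenitor library L, M or O (adjusted p = 0.140 without L). Mia, a secreted cartilage protein, was 1556 to 5027 RPKM in osteoprogenitors and 0.409 to 596 RPKM in stromal progenitors (log2 difference 5.63, adjusted p = 0.0287). Panx3, a channel protein of osteoblasts and chondrocytes, was 88.3, 87.3, 80.7 and 183 RPKM in osteoprogenitors and at most 0.0806 RPKM in stromal progenitors (log2 difference 6.65 ± 0.74 (SE), adjusted p = 0.000281).

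The cartilage genes did not all move one way. Comp, the oligomeric matrix protein of cartilage and tendon, was 971, 1230.2, 1117 and 426 RPKM in osteoprogenitors and 3244, 2706, 1388, 3643 and 2441 RPKM in stromal progenitors (log2 difference -1.55 ± 0.35 (SE), adjusted p = 0.0289). Chad, chondroadherin, was 3838, 7613, 7735 and 4865 RPKM in osteoprogenitors and 14289.5, 8515, 11256, 14002 and 11663 RPKM in stromal progenitors (log2 difference -1.03 ± 0.26 (SE), adjusted p = 0.0491), and its call was lost without osteoprogenitor library L or O or stromal library C or N (adjusted p = 0.178 without osteoprogenitor library L). Prg4, lubricin of the joint surface, had a log2 difference of -0.87 (adjusted p = 0.101) and Cilp, of cartilage intermediate layers, -0.92 (0.130), and neither passed. Cytl1, a cytokine-like protein of cartilage, was 21952 to 48004 RPKM in osteoprogenitors and 19746 to 48935 RPKM in stromal progenitors (log2 difference 0.17, adjusted p = 0.887). Col10a1, the collagen of hypertrophic cartilage, ranged from 0.0521 to 76.0 RPKM in osteoprogenitors and from 0.0585 to 132 RPKM in stromal progenitors (log2 difference 0.46, adjusted p = 0.949). Summed over the cartilage list, levels were 41144 to 68849.7 RPKM in osteoprogenitors and 37721 to 70160.4 RPKM in stromal progenitors, sums carried mostly by Cytl1 and Chad. Whether the cartilage transcripts came from the same cells as the bone genes was not tested.

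Other genes with large differences towards osteoprogenitors had varied roles. Cmtm5, of a chemokine-like family, was 93.9, 203, 41.97 and 103 RPKM in osteoprogenitors and at most 0.0658 RPKM in stromal progenitors (log2 difference 6.57, adjusted p = 0.000421). F3, tissue factor, which starts blood clotting, was 183, 270.3, 145 and 190.5 RPKM in osteoprogenitors and 7.92, 0, 2.80, 0 and 7.54 RPKM in stromal progenitors (log2 difference 5.96, adjusted p = 0.00105). Lipc, hepatic lipase, was 26.4 to 148 RPKM in osteoprogenitors and at most 0.0954 RPKM in stromal progenitors (log2 difference 5.91, adjusted p = 0.00158). Mlip, a lamin-interacting protein of muscle, was 48.3 to 191 against 0 to 9.29 RPKM (log2 difference 5.98, adjusted p = 0.00265), and AI646519 36.6 to 143 against 0 to 0.122 RPKM (log2 difference 5.79, adjusted p = 0.00158). Pcp4, a calmodulin-binding peptide, overlapped through stromal library C (log2 difference 5.77, adjusted p = 0.0188) and did not pass with voom-limma (adjusted p = 0.121).

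Genes of fibroblast-like progenitors formed the largest set on the stromal side. Of 30 tested, 15 were higher in stromal progenitors and 0 in osteoprogenitors, against 1.9% and 1.69% of all genes, with a median log2 difference of -1.91. This list holds Ly6a, which was part of the sort. Ly6c1, a neighbour of Ly6a in the Ly6 family, was 34.6, 71.9, 39.7 and 12.1 RPKM in osteoprogenitors and 574, 742, 635, 428 and 619 RPKM in stromal progenitors (log2 difference -4.11 ± 0.44 (SE), adjusted p = 0.000246). Col3a1, the collagen of soft connective tissue, was 280.3, 514, 189 and 195 RPKM in osteoprogenitors and 1743, 2625, 1224, 1836 and 2665 RPKM in stromal progenitors (log2 difference -2.84 ± 0.35 (SE), adjusted p = 0.000587). This is the reverse of type I collagen, and the groups did not overlap for either. Dcn, decorin, a proteoglycan that binds collagen, was 8817, 21789, 10510.5 and 22999 RPKM in osteoprogenitors and 64514, 48981, 62852, 55544 and 65121 RPKM in stromal progenitors (log2 difference -2.01 ± 0.28 (SE), adjusted p = 0.00158). Decorin was high in both gates, and the stromal mean was 3.71-fold the osteoprogenitor mean.

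Further members were low or absent in osteoprogenitors, or lower there. Mfap5, a microfibril protein, was 32.9, 73.0, 0.0438 and 0.193 RPKM in osteoprogenitors and 433, 542, 1191, 200.1 and 649 RPKM in stromal progenitors (log2 difference -6.11 ± 1.09 (SE), adjusted p = 0.00751). Fbln2, fibulin 2, was 2.82 to 9.83 against 58.3 to 155 RPKM (log2 difference -3.97, adjusted p = 0.00158). Scara5, a scavenger receptor for ferritin, was 2.36, 0, 0.121 and 0.0389 RPKM in osteoprogenitors and 46.7, 28.8, 37.8, 47.1 and 19.1 RPKM in stromal progenitors (log2 difference -4.64, adjusted p = 0.00494). Cd248, endosialin, was 0 in all 4 osteoprogenitor libraries and 26.3, 11.3, 4.77, 7.12 and 3.34 RPKM in stromal progenitors, and passed (adjusted p = 0.0387). Cd34, a surface antigen of progenitors and endothelium, was 6.66, 21.02, 20.4 and 12.3 RPKM in osteoprogenitors and 205, 75.7, 179, 94.8 and 64.4 RPKM in stromal progenitors (log2 difference -2.92, adjusted p = 0.00806). Gsn, gelsolin, was 345 to 645 against 1249.8 to 2884 RPKM (log2 difference -1.95, adjusted p = 0.00265). Of the 15, Ly6a (adjusted p = 0.103), Mfap5 (0.246), Dpt (0.241) and Cd34 (0.133) did not pass with voom-limma. Clec3b and Cd248 were lost without osteoprogenitor library L, N or O (adjusted p = 0.118 and 0.127 without N). Among members that did not pass, Thy1 (log2 difference -1.81, adjusted p = 0.496) and Col15a1 (log2 difference -1.82, adjusted p = 0.275) lay on the stromal side, while Nt5e, which encodes CD73, was 360.2 to 450.3 RPKM in osteoprogenitors and 211 to 592 RPKM in stromal progenitors (log2 difference 0.33, adjusted p = 0.767).

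Angptl7 and Tppp3 were far higher in every stromal library than in any osteoprogenitor library. Angptl7, an angiopoietin-like secreted protein, was 20.3, 140.5, 40.2 and 50.9 RPKM in osteoprogenitors and 1679, 1451, 898, 551 and 1115 RPKM in stromal progenitors (log2 difference -4.40 ± 0.49 (SE), adjusted p = 0.000291). Tppp3, a tubulin-binding protein known from tendon sheath cells, was 53.5, 133, 44.6 and 22.5 RPKM in osteoprogenitors and 813, 1267, 1871, 1681 and 787 RPKM in stromal progenitors (log2 difference -4.51 ± 0.46 (SE), adjusted p = 0.000141). Slurp1, a secreted protein of the Ly6 family chosen here after its values were seen because its adjusted p was the lowest of the stromal genes, was 209, 378, 211 and 227 RPKM in osteoprogenitors and 1970.2, 3102, 3935, 4285 and 2571 RPKM in stromal progenitors (log2 difference -3.62 ± 0.30 (SE), adjusted p = 1.15e-05). Of 7 tendon genes tested, Angptl7 and Scx passed, against 3.58% of all genes. Scx, scleraxis, the transcription factor of tendon, was 0, 0.488, 0 and 0 RPKM in osteoprogenitors and 9.51, 12.2, 35.96, 14.2 and 33.6 RPKM in stromal progenitors (log2 difference -4.13 ± 0.81 (SE), adjusted p = 0.0131). Tnmd, tenomodulin of mature tendon, was 54.8, 905, 248 and 0.0410 RPKM in osteoprogenitors and 9.45, 459, 224, 299.8 and 22.3 RPKM in stromal progenitors, with a wide spread in both groups, and did not pass (log2 difference -0.65, adjusted p = 0.930). Kera (log2 difference -1.16, adjusted p = 0.877), Thbs4 (log2 difference 0.101, adjusted p = 0.972) and Fmod (log2 difference -0.30, adjusted p = 0.841) did not pass either, and library M had the highest Tnmd, Kera and Thbs4 of the osteoprogenitors.

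The remaining genes with the largest stromal differences were Serpinb7, Ube2l6, Nov, Aldh3a1, Akr1b8, Angptl1, AA467197 and BC017643. Serpinb7, a serine protease inhibitor, was at most 0.042 RPKM in osteoprogenitors and 17.6, 95.9, 90.7, 134 and 5.17 RPKM in stromal progenitors (log2 difference -5.39, adjusted p = 0.00806). Nov, which encodes the matricellular protein CCN3, was 0.0993, 13.2, 3.65 and 24.7 RPKM in osteoprogenitors and 171, 391.9, 343, 89.6 and 182 RPKM in stromal progenitors (log2 difference -4.98, adjusted p = 0.00388). Aldh3a1, an aldehyde dehydrogenase, was 0 to 5.51 against 10.7 to 93.0 RPKM (log2 difference -4.84, adjusted p = 0.00806), and Akr1b8, an aldo-keto reductase, 0.0834 to 0.425 against 5.77 to 59.3 RPKM (log2 difference -4.40, adjusted p = 0.0165). Ube2l6, the conjugating enzyme for ISG15, had a log2 difference of -5.11 (adjusted p = 0.00388), AA467197 -5.41 (0.00325), Angptl1 -4.74 (0.0211) and BC017643 -4.42 (0.0234). For Angptl1 and BC017643 osteoprogenitor library N reached into the stromal range. None of these 8 genes passed with voom-limma, and each passed in all 9 fits without 1 library.

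Several genes of the insulin-like growth factor axis and of complement were higher in stromal progenitors. Of 11 IGF genes tested, 4 were higher in stromal progenitors, against 1.9% of all genes, and 0 in osteoprogenitors (median -1.49). Among them, Igfbp6 is in the fibroblast list too. Igfbp6, which binds IGF2, was 149, 954, 466 and 359 RPKM in osteoprogenitors and 4042, 3999, 3247, 2807 and 2452 RPKM in stromal progenitors (log2 difference -3.04 ± 0.41 (SE), adjusted p = 0.00152). Igfbp5 (log2 difference -1.79, adjusted p = 0.00494), Igfbp7 (log2 difference -1.19, adjusted p = 0.0485) and the protease Htra1 (log2 difference -1.49, adjusted p = 0.0124) passed too, and Igf1 itself missed the threshold (log2 difference -2.22, adjusted p = 0.102). Igfbp7 was lost without osteoprogenitor library N or O or stromal library L or N (adjusted p = 0.151 without osteoprogenitor library N). Of 10 complement genes, 4 were higher in stromal progenitors, against the same 1.9%, and 0 in osteoprogenitors (median -1.71). Cd55, the decay-accelerating factor, was 0.186, 73.2, 1.49 and 2.58 RPKM in osteoprogenitors and 119, 296, 305, 238 and 101 RPKM in stromal progenitors (log2 difference -5.19 ± 0.95 (SE), adjusted p = 0.00806). Serping1, the C1 inhibitor, was 48.1 to 447 against 789 to 1589 RPKM (log2 difference -2.34, adjusted p = 0.0262). C3, the central component, was 1.34, 0, 13.97 and 0.0212 RPKM in osteoprogenitors and 26.8, 47.8, 40.2, 23.3 and 37.7 RPKM in stromal progenitors (log2 difference -3.84, adjusted p = 0.0298), and C1s passed as well (log2 difference -3.39, adjusted p = 0.0324). Cd55 (adjusted p = 0.177) and C1s (0.453) did not pass with voom-limma. With all 38 libraries in the fit 1 of the IGF genes passed.

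**Figure D3:**
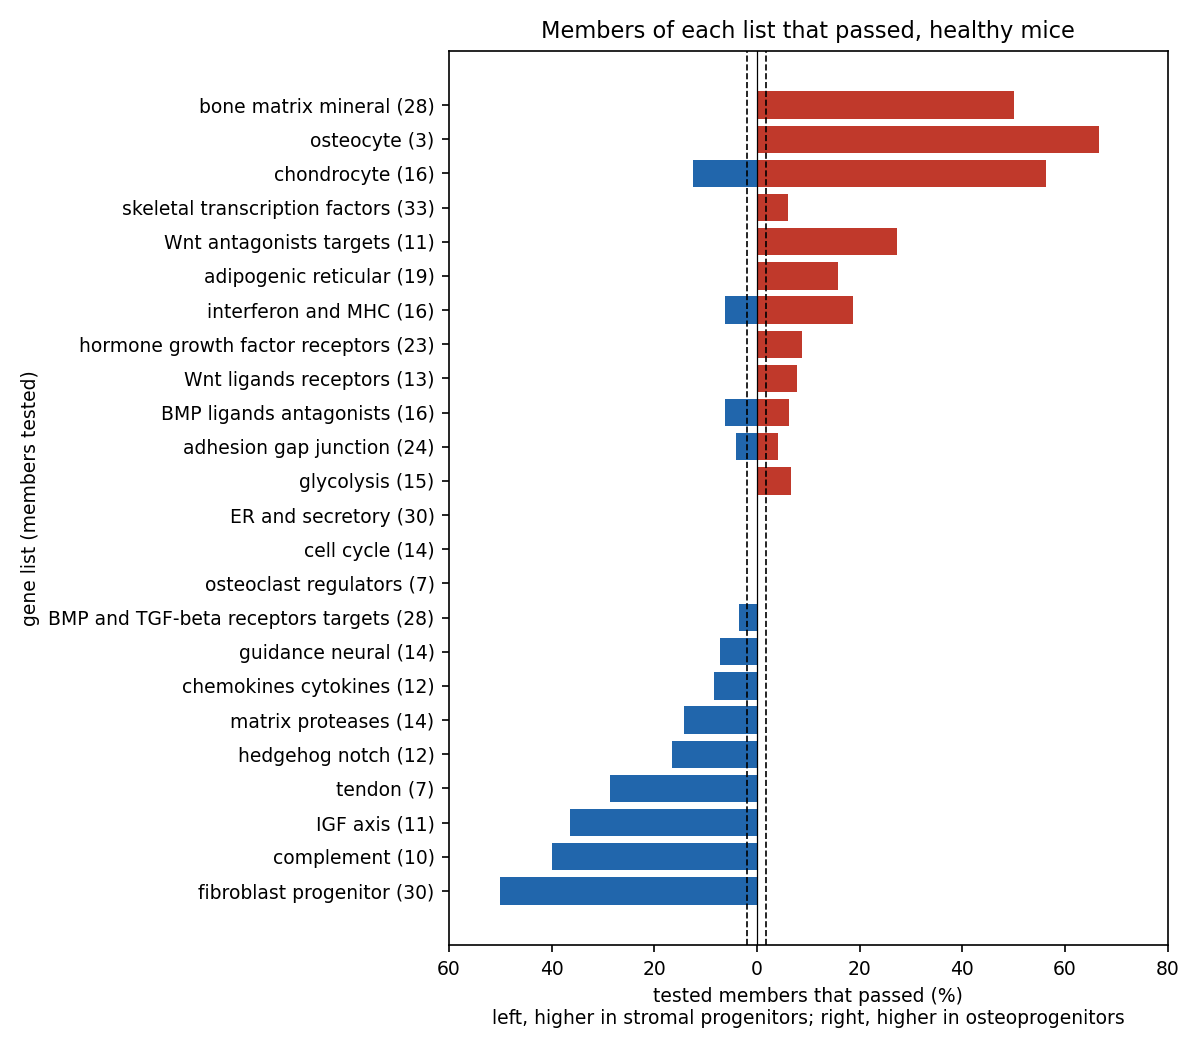
Share of the tested members of gene lists (y axis, with the number tested) that passed, as percent (x axis; red to the right, higher in osteoprogenitors; blue to the left, higher in stromal progenitors). Dashed lines mark the share of all 8707 genes, 1.69% and 1.9%, and the bone matrix, cartilage and fibroblast lists extend furthest past them among lists of over 10 members. The lists were chosen with earlier results of these data known.

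Genes of marrow adipocytes and reticular stroma, which support blood formation, were examined since Lepr+ and adiponectin-expressing cells share the marrow stroma. Of 19 tested, Hp, Apoe and Adipoq were higher in osteoprogenitors, against 1.69% of all genes, and 0 were higher in stromal progenitors. Hp, haptoglobin, was 82.7, 18.6, 67.0 and 51.3 RPKM in osteoprogenitors and 2.79, 0.0436, 0.0345, 0.0341 and 0 RPKM in stromal progenitors (log2 difference 5.20 ± 0.85 (SE), adjusted p = 0.00431). Apoe, apolipoprotein E, was 958, 875, 1181 and 797 RPKM in osteoprogenitors and 381, 14.2, 24.2, 4.76 and 233 RPKM in stromal progenitors (log2 difference 4.37 ± 0.97 (SE), adjusted p = 0.0254). Adipoq, adiponectin, was 53.3, 0.450, 700.2 and 104 RPKM in osteoprogenitors and 0.782, 0.143, 0.113, 0.892 and 1.09 RPKM in stromal progenitors (log2 difference 4.98 ± 1.37 (SE), adjusted p = 0.0762). Library N carried most of it and library M lay within the stromal range. The call did not hold with voom-limma (adjusted p = 0.360), and it was lost in 8 of the 9 fits without 1 library, with adjusted p up to 0.223 (without osteoprogenitor library N). Lepr, the leptin receptor, was 48.9, 8.94, 7.501 and 22.8 RPKM in osteoprogenitors and 33.7, 19.5, 21.7, 10.9 and 23.9 RPKM in stromal progenitors and did not pass.

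Wnt signalling drives bone formation and is held back by secreted antagonists. Of 11 antagonists and targets tested, Dkk1, Notum and Sfrp5 were higher in osteoprogenitors, against 1.69% of all genes, and 0 were higher in stromal progenitors. Dkk1, which blocks the LRP5 and LRP6 co-receptors, was 40.8, 2.34, 23.4 and 46.0 RPKM in osteoprogenitors and at most 0.02 RPKM in stromal progenitors (log2 difference 4.32 ± 0.89 (SE), adjusted p = 0.0165). Library M held less Dkk1 than the other osteoprogenitors. Notum, which inactivates Wnt proteins by removing their lipid, was 40.6, 15.7, 79.5 and 28.2 RPKM in osteoprogenitors and 5.98, 0.0290, 0, 0.136 and 6.65 RPKM in stromal progenitors (log2 difference 3.97, adjusted p = 0.0376). Sfrp5, a decoy receptor, was 19.99, 8.79, 50.4 and 60.3 RPKM in osteoprogenitors and 0.0267, 0.0308, 0, 6.34 and 2.80 RPKM in stromal progenitors (log2 difference 3.85, adjusted p = 0.0479). Notum was lost without osteoprogenitor library L or N (adjusted p = 0.144 without N), and Sfrp5 without osteoprogenitor library L, N or O or stromal library M (0.155 without osteoprogenitor library O). Sfrp4, a related decoy, had the opposite sign, with 1.07, 423, 126 and 0.309 RPKM in osteoprogenitors and 816, 339, 646, 459 and 185 RPKM in stromal progenitors, and did not pass (log2 difference -4.47, adjusted p = 0.123). Wif1, another Wnt binder, was 885 to 1519 RPKM in osteoprogenitors and 176 to 713 RPKM in stromal progenitors and just missed the threshold (log2 difference 1.28, adjusted p = 0.105). Of 13 ligands and receptors tested, only Rspo3 passed, against 3.58% of all genes. Rspo3, a secreted enhancer of Wnt signalling, was 28.7, 6.84, 5.02 and 12.9 RPKM in osteoprogenitors and above 0 in the stromal library C only (log2 difference 3.29, adjusted p = 0.0324), and it was lost without stromal library N (adjusted p = 0.1001). The receptor gene Fzd8 lay furthest to the stromal side without passing (log2 difference -2.88, adjusted p = 0.129).

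Bone morphogenetic proteins (BMPs) induce bone and cartilage. Of 16 BMP ligands and antagonists tested, Bmp7 was higher in osteoprogenitors and Fstl1, also in the fibroblast list, in stromal progenitors, against 1.69% and 1.9% of all genes. Bmp7 was 3.34, 17.3, 1.35 and 4.40 RPKM in osteoprogenitors and 0 in all stromal libraries (adjusted p = 0.0608). Its call was lost in 6 of the 9 fits without 1 library, those without osteoprogenitor library O and without each of the stromal libraries (adjusted p up to 0.153, without stromal library N). Fstl1, a secreted BMP-binding glycoprotein, was 141, 70.0, 123 and 65.6 RPKM in osteoprogenitors and 494, 402, 422, 329.8 and 306 RPKM in stromal progenitors (log2 difference -2.01 ± 0.35 (SE), adjusted p = 0.00589). Bmp4 was 15.3, 61.6, 17.4 and 54.1 RPKM in osteoprogenitors and 60.003, 263, 152, 117 and 80.98 RPKM in stromal progenitors and did not pass (log2 difference -1.90, adjusted p = 0.112). Of 28 receptors, latent-complex proteins and targets of the BMP and TGF-beta pathways, Ltbp4 alone passed, higher in stromal progenitors (log2 difference -2.55, adjusted p = 0.0853), a share like the 3.58% of all genes. It was lost in 7 of the 9 fits without 1 library (adjusted p up to 0.221, without osteoprogenitor library L) and with voom-limma (0.210). Of 12 hedgehog and Notch genes, the hedgehog co-receptors Gas1 (log2 difference -1.53, adjusted p = 0.0233) and Cdon (log2 difference -1.66, adjusted p = 0.0682) were higher in stromal progenitors, against 1.9% of all genes, and Cdon was lost in 7 of the 9 fits without 1 library (adjusted p up to 0.180, without stromal library N). Jag1, a Notch ligand, did not pass (log2 difference -1.07, adjusted p = 0.636).

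Of 23 receptors for hormones and growth factors, Vdr and Lifr were higher in osteoprogenitors, against 1.69% of all genes. Vdr, the vitamin D receptor, was 12.1, 17.5, 6.47 and 18.6 RPKM in osteoprogenitors and above 0 in 1 of 5 stromal libraries, at 0.0103 RPKM (log2 difference 3.78 ± 0.69 (SE), adjusted p = 0.00806). Lifr, the receptor of leukaemia inhibitory factor, was 95.1, 30.5, 63.6 and 65.9 RPKM in osteoprogenitors and 2.395, 3.95, 4.56, 13.3 and 6.84 RPKM in stromal progenitors (log2 difference 3.24 ± 0.66 (SE), adjusted p = 0.0153). Pth1r, the receptor of parathyroid hormone, was 66.5, 14.9, 110.3 and 66.0 RPKM in osteoprogenitors and 12.3, 31.4, 1.98, 29.4 and 9.33 RPKM in stromal progenitors, overlapped and did not pass (log2 difference 2.01, adjusted p = 0.274). Fgfr3 (log2 difference 2.81, adjusted p = 0.130), the glucocorticoid receptor gene Nr3c1 (log2 difference -1.61, adjusted p = 0.223) and Il6st (log2 difference -1.75, adjusted p = 0.386) did not pass.

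None of the 7 tested genes that act on osteoclasts passed with limma, 2 of them were below an unadjusted p of 0.05, and 1 passed with voom-limma. Tnfrsf11b, which encodes the decoy receptor osteoprotegerin, was 246, 377, 161 and 165 RPKM in osteoprogenitors and 544, 373, 508, 385 and 619 RPKM in stromal progenitors (log2 difference -1.09, adjusted p = 0.126). Tnfsf11, which encodes RANKL, was 6.45, 0, 3.65 and 0 RPKM in osteoprogenitors and 0, 0, 0, 0.0205 and 0 RPKM in stromal progenitors and fell below the filter. Csf1 (log2 difference -0.68, adjusted p = 0.791) and Il11 (log2 difference 2.55, adjusted p = 0.303) did not pass. Of 12 chemokines and cytokines, Il33 passed, against 3.58% of all genes. Il33, an alarm cytokine of stromal nuclei, was 0.0301, 0, 0.0237 and 0 RPKM in osteoprogenitors and 31.99, 94.8, 230.0, 105 and 0.258 RPKM in stromal progenitors, where library O stood apart near 0 (log2 difference -5.29 ± 1.27 (SE), adjusted p = 0.0387). It was lost without stromal library M or N (adjusted p = 0.107 without N) and with voom-limma (0.489). Ccl2, a monocyte attractant, was 0.194, 0.589, 101 and 3.71 RPKM in osteoprogenitors and 108, 1788, 321, 31.5 and 11.7 RPKM in stromal progenitors and did not pass (log2 difference -4.46, adjusted p = 0.145).

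**Figure D4:**
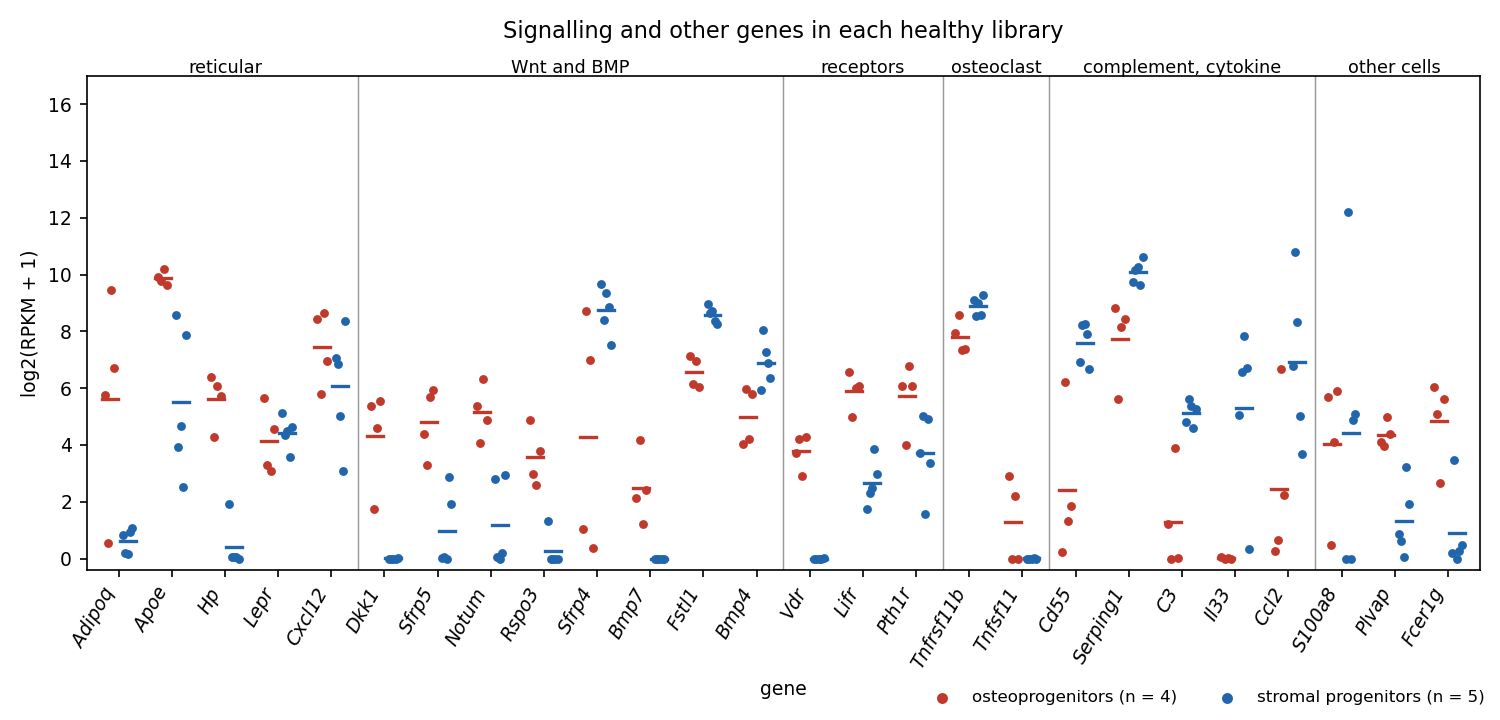
Log2(RPKM + 1) of reticular, Wnt, BMP, receptor, osteoclast, complement and cytokine genes and of markers of other cells in each library (red, 4 osteoprogenitor libraries; blue, 5 stromal progenitor libraries; bars, means). Dkk1, Bmp7 and Vdr are at or near 0 in the stromal libraries, and a single stromal library, L, holds S100a8 far above the rest.

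Lists on matrix turnover, adhesion and cell physiology each had 1 or 2 genes that passed, against 3.58% of all genes. Timp2 (log2 difference -1.54, adjusted p = 0.0141) and Timp3 (log2 difference -1.52, adjusted p = 0.0152), inhibitors of matrix proteases, were higher in stromal progenitors among 14 genes tested, and Mmp13, the collagenase of bone and hypertrophic cartilage, was 158, 306, 482 and 0.610 RPKM in osteoprogenitors and 12.3, 0, 3.16, 0.0685 and 52.2 RPKM in stromal progenitors without passing (log2 difference 3.97, adjusted p = 0.268). Of 24 adhesion genes, Cdh2, N-cadherin, was higher in osteoprogenitors (2.999 to 10.9 against 0 to 0.0437 RPKM, log2 difference 2.84, adjusted p = 0.0224) and Sdc2, syndecan 2, in stromal progenitors (log2 difference -1.34, adjusted p = 0.0512), the latter lost without osteoprogenitor library L or O or stromal library M or O (adjusted p = 0.151 without osteoprogenitor library O). Of 22 collagen-processing genes only Pcolce2, an enhancer of procollagen cleavage, passed, higher in stromal progenitors (log2 difference -1.77, adjusted p = 0.0165). Among 14 guidance and neural genes Sema3c was higher in stromal progenitors (log2 difference -2.67, adjusted p = 0.0231), and the neuropeptide gene Npy was 326, 972, 62.2 and 1937 RPKM in osteoprogenitors and 1439, 3543, 2979.9, 1487 and 4012 RPKM in stromal progenitors without passing (log2 difference -2.47, adjusted p = 0.115). Of 15 glycolysis genes the glucose transporter Slc2a1 was higher in osteoprogenitors (log2 difference 2.14, adjusted p = 0.0491), and it was lost without osteoprogenitor library L or N or stromal library M (adjusted p = 0.168 without osteoprogenitor library L). Of 22 immediate-early and stress genes Dnajb1 was higher in osteoprogenitors (log2 difference 1.95, adjusted p = 0.0559), and it was lost without any 1 of the 4 osteoprogenitor libraries (adjusted p = 0.166 without O).

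Genes of antigen presentation and interferon response went both ways. Of 16 tested, Ifitm1, H2-K1 and B2m were higher in osteoprogenitors and Ifi27l2a in stromal progenitors, against 1.69% and 1.9% of all genes. Ifitm1, a relative of Ifitm5, was 101, 18.8, 43.6 and 60.3 RPKM in osteoprogenitors and at most 0.111 RPKM in stromal progenitors (log2 difference 5.57 ± 0.81 (SE), adjusted p = 0.00201). B2m, the light chain of MHC class I, was 6587 to 12936 RPKM in osteoprogenitors and 2904 to 4743 RPKM in stromal progenitors (log2 difference 1.14, adjusted p = 0.0231), and without osteoprogenitor library O its log2 difference was 0.94 and below the threshold. H2-K1, a heavy chain, was 298 to 495 against 104 to 195 RPKM (log2 difference 1.68, adjusted p = 0.0117). Ifi27l2a was lost in 8 of the 9 fits without 1 library (adjusted p up to 0.196, without osteoprogenitor library L).

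Of the members of 4 further lists none passed with limma, which holds for these members and not for every gene of these processes. They were 0 of 30 genes of the endoplasmic reticulum and secretion (5 below an unadjusted p of 0.05, 1 passing with voom-limma), 0 of 14 cell cycle genes (1 and 0), 0 of 10 genes of the ATF4 amino acid response (1 and 0) and 0 of 9 imprinted growth genes (3 and 0). Medians of these lists were 0.16, 0.101, 0.40 and 0.15. The chaperone gene Dnajb11 (log2 difference -1.42, adjusted p = 0.327) and Creb3l1, a factor that drives collagen secretion (log2 difference 1.31, adjusted p = 0.693), lay at the ends of the secretory list. Outside the lists and chosen after their values were seen, Fkbp11, a prolyl isomerase of the endoplasmic reticulum, was 311, 393, 336 and 962 RPKM in osteoprogenitors and 51.1, 79.0, 71.7, 76.0 and 162 RPKM in stromal progenitors (log2 difference 2.44 ± 0.43 (SE), adjusted p = 0.00705). Ube2c, a ubiquitin-conjugating enzyme of mitosis, was 19.3, 3.74, 8.69 and 16.3 RPKM in osteoprogenitors and 0, 0, 0.0997, 0.148 and 0 RPKM in stromal progenitors (log2 difference 3.43 ± 0.70 (SE), adjusted p = 0.0165). Both passed with voom-limma and without any single library.

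Markers of other cells were examined in the same libraries. Of 14 endothelial genes, 10 were at 1 RPKM or less in all 9 libraries. Plvap, of fenestrated endothelium, was 16.1, 14.8, 30.96 and 19.99 RPKM in osteoprogenitors and 0.805, 0.523, 0.0461, 8.43 and 2.75 RPKM in stromal progenitors (log2 difference 3.03, adjusted p = 0.101), and the summed endothelial list was 16.1 to 34.2 RPKM in osteoprogenitors and 1.13 to 19.1 RPKM in stromal progenitors. Ly6a and Ly6c1 were 4445 ± 2553 and 2408 ± 386 RPKM (SD, n = 5) in healthy endothelial cells, where both means were above those of either progenitor. The neutrophil list summed to 44.2 to 94.0 RPKM in osteoprogenitors and to 16.5, 7273, 97.4, 292 and 40.1 RPKM in stromal progenitors. Stromal library L thus stood apart, with S100a8 at 4728 RPKM, and without it 285 genes passed with the filter set again. The blood cell list reached 114 RPKM in the same library and at most 10.3 RPKM in the others. Fcer1g, of myeloid cells, was 65.1, 33.4, 5.25 and 47.9 RPKM in osteoprogenitors and 0.154, 9.97, 0, 0.209 and 0.408 RPKM in stromal progenitors (log2 difference 3.97, adjusted p = 0.0538), and passed alone of 4 macrophage and osteoclast genes tested, though in 3 of the 9 fits without 1 library only (adjusted p up to 0.174, without osteoprogenitor library L) and not with voom-limma (0.158). The macrophage and osteoclast list summed to 257 to 442 RPKM in osteoprogenitors and 103 to 663 RPKM in stromal progenitors, most of it Ctsk (182 to 361 and 70.9 to 537 RPKM). S100b, the 1 Schwann cell gene tested, which cartilage expresses too, was 94.6 to 385 RPKM in osteoprogenitors and 64.2 to 114 RPKM in stromal progenitors (log2 difference 1.45, adjusted p = 0.132). Pericyte and smooth muscle genes summed to 32.7 to 128 RPKM and 21.5 to 346 RPKM in the 2 cell types, muscle genes to at most 65.6 RPKM, megakaryocyte genes to at most 6.36 RPKM and erythroid genes to at most 3.19 RPKM in any library. The part of these transcripts in the differences was not tested, other than by leaving out each library.

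The same cell types were sorted from myeloma-bearing mice, in 9 libraries that share none with the healthy mice (4 of osteoprogenitors, 5 of stromal progenitors). There, 295 of 8793 genes passed (3.35%), 141 higher in osteoprogenitors (1.6%) and 154 higher in stromal progenitors (1.75%). Of the 312 genes that passed in healthy mice, 303 were tested in myeloma-bearing mice, 290 of them (95.7%) had the same direction and 155 passed in it, and 0 passed in the other direction. The count of 155 fell to 94, 102 and 97 without osteoprogenitor library G, I or J of the myeloma-bearing mice. Over the 7604 genes tested in both that did not pass in healthy mice, the direction was the same for 60.3%. Of the genes higher in healthy osteoprogenitors, 64 of 142 passed in myeloma-bearing mice, and their median log2 difference was 3.69 in healthy and 2.80 in myeloma-bearing mice. Of those higher in stromal progenitors, 91 of 161 passed, with medians of -2.51 and -2.07. Genes picked for passing have larger differences in the libraries that picked them, so these medians are not a measure of the effect of myeloma.

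Several of the genes with the largest differences in healthy mice passed in these mice too. Bglap ranged over 23958 to 54769 RPKM in osteoprogenitors and 14.4 to 197 RPKM in stromal progenitors of myeloma-bearing mice (log2 difference 8.96, adjusted p = 1.19e-07), Ifitm5 had a log2 difference of 8.79 (6.24e-05) and Car3 of 10.32 (5.63e-08). Ly6a ranged over 5.58 to 35.5 RPKM and 776 to 2871 RPKM (-6.01, 1.43e-05). Col2a1 (5.38, 0.000117), Tppp3 (-6.36, 0.000355) and Dcn (-2.06, 1.85e-05) passed as well. Sp7 (3.91, 0.0122), Alcam (2.98, 0.0617) and Alpl (3.59, 0.0322), which missed the threshold in healthy mice, passed in myeloma-bearing mice, while Prrx1 did not (-1.93, 0.191). Genes that passed in healthy mice but not there include F3 (2.26, 0.218), Il33 (-1.82, 0.678), Scx (-1.39, 0.751), Hp (1.21, 0.532), Apoe (1.25, 0.470) and Sox9 (1.49, 0.154). The difference between conditions was tested as an interaction over 9593 genes, of which 0 passed with limma and 393 were below an unadjusted p of 0.05, the lowest adjusted p being 0.425. No gene's difference between the cell types was shown to change with myeloma. Among the 13 genes with opposite signs, Psmg3, chosen after its values were seen, was the furthest apart (-4.22 in healthy and 2.68 in myeloma-bearing mice, interaction adjusted p = 0.425).

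**Figure D5:**
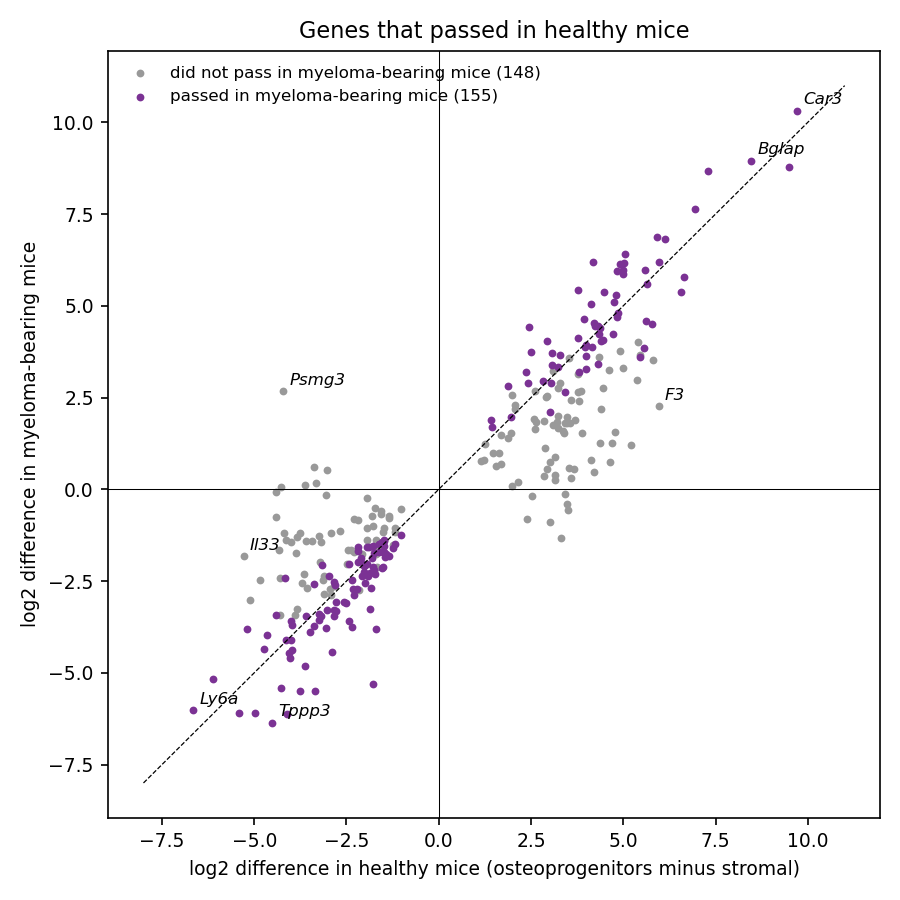
Log2 difference between the cell types in healthy mice (x axis) against that in myeloma-bearing mice (y axis) for the 303 genes that passed in healthy mice and were tested in both (purple, 155 that passed in both; grey, 148 that did not; dashed, equal differences). All but 13 genes lie in the quadrants of equal sign.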

How the data were processed

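Bone-lining cells of healthy mice were sorted by FACS into osteoprogenitors and stromal progenitors, and each aliquot of 100 cells was made into a SmartSeq2 library, read as single-end 50 bp reads. The authors aligned the reads with STAR 2.4.0, counted them with featureCounts (Subread 1.4.5-p1), and with edgeR retained those genes that exceeded 1 CPM in 4 or more libraries before depositing RPKM values. The labels do not say that each letter of a library is a separate mouse. Samples were grouped by the labels, and 4 osteoprogenitor and 5 stromal progenitor libraries were compared. The gene lists and named genes were chosen with earlier results of these data known.

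The table held 13260 genes. Values were taken as log2(RPKM + 1), a gene entered the test if 4 or more of the 9 columns exceeded 1 RPKM, and limma 3.58.1 (R 4.3.3, lmFit and eBayes with trend) gave p-values adjusted by Benjamini and Hochberg. Genes were called at an adjusted p below 0.1 and a log2 difference above 1. Reads behind the RPKM values were recovered from their steps for all genes (99.0% of implied gene lengths lay within 0.05 of a whole number) and used for total reads and for voom-limma. The same test was applied to myeloma-bearing mice, and an interaction term tested the change between conditions. The scripts were tested on simulated data.

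Named were the sort genes and the study's markers, the 15 genes with the largest difference in each direction, and of each list up to 6 members that passed and 3 at either end that did not. Others were named for their role after their values were seen. A few genes that the rule names are not reported here. Alternatives were a pseudocount of 0.1, no filter, a filter on the mean, an adjusted p below 0.05, all 38 libraries or the 18 progenitor libraries in the fit, no trend, array weights, a common median, voom-limma, a replicate block, and leaving out each library, also with the tested genes held, which was added after seeing the data. Promoters were read from RefSeq (GRCm38.p6). Tables were handled in pandas 2.3.3 (Python 3.11.15), sequences in Biopython 1.88 and figures in matplotlib 3.10.9, while scipy 1.17.1 and numpy 2.4.6 gave the remaining statistics.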

Additional observations from a re-analysis of the deposited data

Results flagged for a closer look

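Values of the named genes were screened within each group of 4 or 5 libraries for a highest or lowest library whose gap to the next exceeded Dixon's 95% limit. Of 88 groups 14 were picked out, where chance picks out about 1 in 20. For Dkk1, Cmtm5 and Serpinb7 all other libraries of the group were at 0, where any read is picked out and this rate does not hold. For Alcam, Sp7, Col9a1 and Mlip in stromal progenitors and Aldh3a1 and BC017643 in osteoprogenitors, the others were at most 0.0945 RPKM. The rate need not hold near this floor, so 14 of 88 is not read as an excess. In osteoprogenitors, library O was high for Sp7 (30.6 RPKM, the others 1.51 to 2.67) and Panx3 (183 RPKM, the others 80.7 to 88.3). Library N was high for Aldh3a1 (5.51 RPKM), Angptl1 (14.7 RPKM) and BC017643 (15.9 RPKM), library L for Scara5 (2.36 RPKM) and library M for Serpinb7 (0.0420 RPKM). In stromal progenitors, library C was high for Alcam (1.13 RPKM), Sp7 (0.711 RPKM) and Col9a1 (5.09 RPKM), library O for Dkk1 (0.0200 RPKM) and Mlip (9.29 RPKM) and library L for Cmtm5 (0.0658 RPKM). Library N of the stromal progenitors was low for Pdgfrb (0.322 RPKM, the others 9.47 to 17.2). The causes were not tested.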

How the results depend on the processing

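The count of 312 genes was 228 to 444 under the other settings that kept all 9 libraries, within 1.5 times of it. It was 181 to 343 without 1 library, with 181, 197 and 183 genes without osteoprogenitor library L, N or O, where the filter of 4 libraries drops genes seen in osteoprogenitors alone, and 231 to 332 with the tested genes held. Without 1 library of the myeloma-bearing mice, 94 to 150 of the 312 passed there, against 155. A pseudocount of 0.1 gave 143 and voom-limma 127. Of 1280 values of 44 genes under the alternatives, 1207 kept their direction and side of the threshold, 48 no longer passed, 15 passed newly (Alcam, Alpl and Sp7) and 10 changed sign. Of the 44 genes, 19 kept direction and side under every alternative in which they were tested. For Dkk1, Cdh2, Ifitm5, Panx3, Cmtm5, Lipc and AI646519 among them, that was 26 of 30 alternatives. Of 1200 counts of members that passed, over 40 lists, 209 moved by over 1.5 times, 201 of them in lists where at most 4 members passed. The bone list had 9 to 17 (14 in the 9 libraries), cartilage 7 to 12 (11), fibroblast 11 to 17 (15), IGF 1 to 5 (4), complement 1 to 4 (4), Wnt antagonists 0 to 5 (3) and interferon 1 to 6 (4). The changes of sign were those of Pdgfrb (0.07 in the 9 libraries), at -0.068, -0.24 and -0.63 without osteoprogenitor library M, N or stromal library N, with 0.39 without osteoprogenitor library O and a highest value of 0.43 with voom-limma, and Lepr (-0.28), at 0.070 without osteoprogenitor library N and -0.78 without L. Neither passed in any of them, and the cause was not tested. Deviations of same-lettered libraries had correlations of 0.0127 to 0.0260 over 4 pairs, and 1 of 4 osteoprogenitor libraries was closest to its own letter. So few pairs cannot show whether equal letters share a mouse. The letters were not taken as pairs, since the labels do not give them as such. The replicate block gave 268 genes, and 272 with voom-limma, where Pdgfrb was -0.41 and Lepr 0.16. Voom-limma with all 38 libraries was planned and run but, once its weights were seen, was not used. Its curve of spread against abundance fell below 0 (-0.0818), so that 36 genes had weights above 10000, up to 4.90e+14, and Bglap (adjusted p = 0.988), Col1a1 (1.00), Angptl7 (0.414) and Ly6a (0.870), which are abundant, did not pass there. In the fits of 9 libraries the curve stayed above 0 and no gene had such a weight. Libraries of 100 cells limit what can be said of genes with low values.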

Other observations

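Gene families were looked at after their values had been seen. Of 8 annexin genes tested, which encode calcium-dependent membrane-binding proteins, 5 were higher in stromal progenitors, against 1.9% of all genes, and 0 in osteoprogenitors. Anxa1 was 928 to 1787 RPKM in osteoprogenitors and 2714 to 5536 RPKM in stromal progenitors (log2 difference -1.73, adjusted p = 0.00474), and Anxa8 was 308 to 442 against 796 to 1592 RPKM (log2 difference -1.75, adjusted p = 0.00388). Anxa2, Anxa3 and Anxa5 passed as well, Anxa3 not without stromal library M or N (adjusted p = 0.115 without N). Of 10 S100a genes tested, which encode small calcium-binding proteins, 4 were higher in stromal progenitors, against 1.9% of all genes, and 0 in osteoprogenitors. S100a4 was 761 to 2417 against 3787 to 8370.0 RPKM (log2 difference -2.51, adjusted p = 0.00158) and S100a6 was 906 to 2819 against 3568 to 8430.4 RPKM (log2 difference -2.003, adjusted p = 0.00637). S100a10 passed as well, and S100a13 passed in the 9 libraries but not with voom-limma (adjusted p = 0.117) nor in 6 of the 9 fits without 1 library (up to 0.190, without osteoprogenitor library N). Of 30 collagen genes tested, 11 were higher in osteoprogenitors, against 1.69% of all genes, and 2, Col3a1 and Col8a2, in stromal progenitors, against 1.9%. All of the 11 but Col13a1 are in the bone or cartilage list, and Col3a1 is in the fibroblast list, so this count repeats genes given above. Col13a1, a transmembrane collagen, was 4.61 to 6.26 against 0 to 0.284 RPKM (log2 difference 2.61, adjusted p = 0.0228), and Col8a2 was 3.04 to 11.4 against 33.6 to 53.9 RPKM (log2 difference -2.45, adjusted p = 0.0349). Col8a2 was lost without stromal library N (adjusted p = 0.102) and with voom-limma (0.121).

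Of the 165 genes higher in stromal progenitors, 119 (72.1%) had a mean above 1 RPKM in healthy endothelial cells, which the CD31 gate removed, against 84.3% of all genes tested. In 27 (16.4%) that mean was above the stromal one, against 48.8% of all genes. Of the 147 genes higher in osteoprogenitors, 79 (53.7%) had an endothelial mean above 1 RPKM, and in 21 (14.3%) it was above the osteoprogenitor mean, against 50.6% of all genes. The genes were chosen for being high in that progenitor, so nothing is read from the last shares. What part such cells had in the differences was not tested.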
